A study of Mus musculus with 12 samples.

Results

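The genes described here encode the semaphorins and their plexin receptors, the Slits and their Robo receptors, and the netrins and their receptors. They were matched by name, from the symbols of the array platform's annotation, and were chosen with earlier results of these data known. The rule took symbols that begin with Sema3 to Sema7, Plxn, Robo, Unc5, Slit (1 to 3) or Ntn (1, 3, 4 and 5). Neo1 and Dcc were added. The rule matched 49 genes, against 30807 genes with a row of their own in the table. Of these, 47 belong to the families. The other 2, Unc50 and Plxna4os1, share only the first letters of their names: Unc50 is unrelated to the netrin receptors, and Plxna4os1 is a transcript opposite Plxna4. Ntn3 shared its row with Tbc1d24 and Sema4a with Mir7011, so 45 family members had a row of their own, and the brightest row stood for each gene. The 45 were 7 class 3, 5 class 4, 2 class 5, 4 class 6 and 1 class 7 semaphorins, 9 plexins, 3 netrins, 7 netrin receptors, 3 Slits and 4 Robos. Unc5cl, a relative of the UNC5 receptors, was counted with the netrin receptors by its name.

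These families were named for steering growing axons and also act on vessels. A ligand, secreted or held on a neighbouring cell, binds a receptor that changes the actin skeleton and integrin adhesion of the cell that carries it, often so that the cell withdraws. Class 3 semaphorins are secreted and mostly need a neuropilin beside the plexin, whereas classes 4 to 7 are anchored in the membrane and bind plexins directly. Netrins bind DCC, neogenin and the UNC5 proteins, and Slits bind receptors of the Robo family, though not each of its members. In mice, semaphorin 3A acts in the formation of lymphatic valves, plexin D1 guides growing blood vessels, and Robo4 is found mainly in endothelium.

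Expression was measured with Affymetrix whole-transcript arrays in endothelial cells from the ear skin of C57BL6 mice aged 5 weeks, which the labels also call adult. Every group came from mice with the reporter Tg(Prox1-EGFP)KY221Gsat, in which green fluorescent protein follows Prox1, the transcription factor of lymphatic identity. Cells were enriched on beads for PECAM1, a surface protein of all endothelium, then sorted on podoplanin (PDPN), the reporter and LYVE1, a hyaluronan receptor. Each group had 3 arrays labelled as biological replicates, made from 500 pg of total RNA per sample, and the labels do not say whether a replicate is a single mouse or a pool, so the p-values measure only the spread between these samples. Lymphatic endothelial cells (LEC) were divided by surface LYVE1. Those with low or no LYVE1 stand for collecting vessels (col LEC), those with intermediate LYVE1 for pre-collecting vessels (pre-col LEC), and those with high LYVE1 for capillaries (cap LEC). Blood endothelial cells (BEC) had none of the lymphatic markers. The groups of LEC are thus bands of a surface marker and were not dissected from vessels.

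The marker genes followed the labels. All 6 lymphatic markers that had a row lay above the 95th percentile of the array's negative control rows on every LEC array, with a summed level of 14.66 to 15.31 (log2), against 1 or 2 of 6 and 10.29 to 11.26 on the BEC arrays. Prox1, Lyve1 and Pdpn among them are what the cells were sorted on. Blood endothelial markers summed to 11.81 to 12.41 in LEC and 14.78 to 14.91 in BEC, and all 6 pan-endothelial markers stood above the controls on all 12 arrays. BEC also held mural cell markers, with 5 to 7 of 10 above the controls and a summed level of 12.96 to 13.32, against 10.26 to 10.37 in col LEC, 10.49 to 12.05 in pre-col LEC and 10.12 to 10.82 in cap LEC. Rgs5, the defining gene of pericytes, measured 11.82, 11.40 and 11.12 on the BEC arrays. Replicate 1 of pre-col LEC stood apart from its group, with Rgs5 at 10.21, against 8.91 and 7.93, and a fibroblast sum of 12.15 against 10.35 and 10.34. Replicate 1 of col LEC had a fibroblast sum of 11.05 against 10.06 and 10.11, with Dcn at 9.54 against 6.05 and 6.65. The fibroblast sum was 10.01 to 10.41 in cap LEC and 10.98 to 11.54 in BEC, with up to 2 of 8 markers above the controls in BEC. The markers of this list went different ways in BEC. Cd248 measured 8.88, 10.28 and 9.44 there and Dpt 8.85, 8.97 and 7.89. Dcn, at 5.74, 5.67 and 5.82, was lower on every BEC array than on any LEC array. Replicate 1 of BEC had the most lymphatic signal of its group, with Mmrn1 at 9.84 against 6.55 and 6.52. Lymphocyte and mast cell markers summed to 8.33 to 8.54 in LEC and 9.59 to 9.89 in BEC, with 0 or 1 of 6 above the controls. The higher sum in BEC came from Kit, at 9.11, 9.48 and 9.16 in BEC and 6.62 to 7.23 in LEC. The other markers of that list overlapped between LEC and BEC. At most 1 macrophage or adipocyte marker stood above the controls on any array. No Schwann cell, keratinocyte or skeletal muscle marker stood above the controls on any array. In sorted bulk samples, fewer cells of a type and less RNA per cell cannot be told apart.

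**Figure D1:**
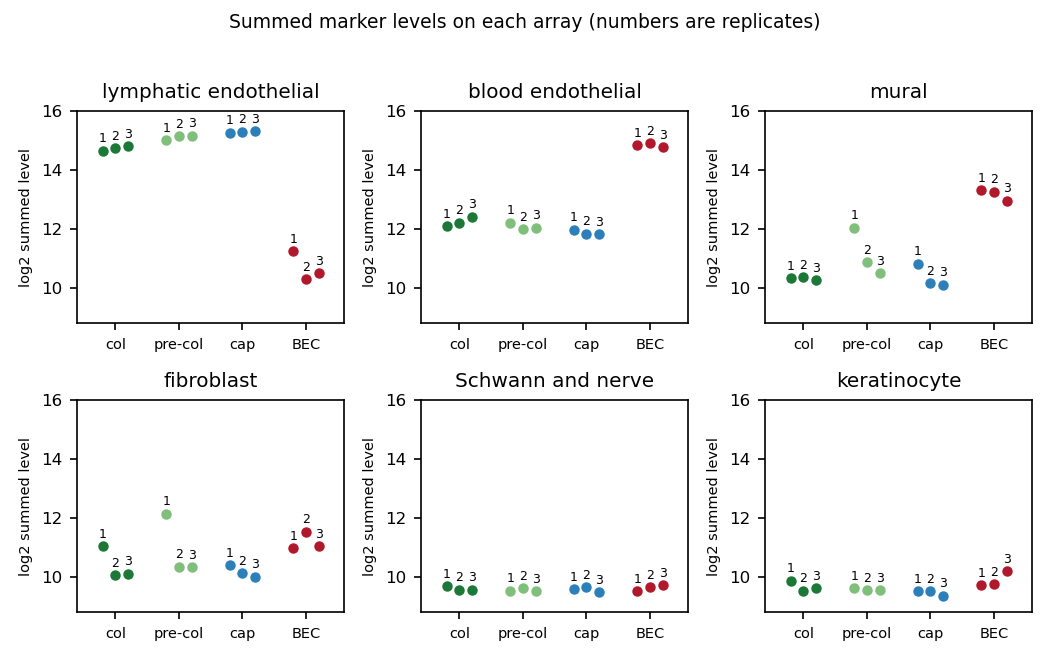
Summed level of the marker genes of 6 cell types (log2 of the summed linear values, vertical axis) on each array, in the order col LEC, pre-col LEC, cap LEC and BEC; a point is an array and the number beside it the replicate. The mural sum is 12.96 to 13.32 in BEC and stands at 12.05 on replicate 1 of pre-col LEC, and the lymphatic sum is highest among BEC on replicate 1, at 11.26.

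Values are log2 signals after RMA, the authors' background correction, normalization and summary of probes, so a difference of 1 is a doubling of signal. The signal of an array row depends on its probes, and levels are compared here only for the same gene between groups. Of the 45 members, 12 stood above the negative controls' 95th percentile (8.92 to 9.34 by array) on all 9 LEC arrays: Sema3a, Sema3d, Sema3f, Sema6a, Sema6b, Ntn1, Ntn4, Plxna2, Plxna4, Plxnd1, Robo4 and Unc5b. On all 3 BEC arrays, 9 did so: Sema3f, Sema6a, Sema6b, Sema6d, Sema7a, Plxna2, Plxnd1, Robo4 and Unc5b. The 2 lists share 7 genes, and 26 members stood above that mark on no array. That mark lay above the array medians (6.06 to 6.17), and the share of all genes above it was not counted. A filter kept genes whose value exceeded the median row of its array on 3 or more of 12 arrays, and 8 members did not pass it and were not tested. Slit2 lay between 4.79 and 4.97 over the 12 arrays, Sema3c between 4.90 and 5.83, Sema3e between 5.07 and 5.20, and Plxnc1 between 5.10 and 5.41. Dcc lay between 5.22 and 5.47, Unc5c between 5.36 and 5.60, Unc5d between 5.68 and 6.04, and Robo1 between 5.91 and 6.35. A signal this weak does not show that a gene is silent. Where a group lies under the negative controls' 95th percentile, a log2 difference against it is that of the measured signals, and no fold is given. The highest Sema3c value came from replicate 1 of pre-col LEC, where the fibroblast sum was 12.15 and the mural sum 12.05, and the part of those cells in it was not tested.

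The largest differences of the families lay between lymphatic and blood endothelium, and the semaphorins, the plexins and the netrin receptors each held genes that went either way. Among the ligands, Sema3d, Sema3a and Ntn1 were higher in LEC than in BEC, and Sema7a and Sema3g were lower. Among the receptors, Plxna4 and Neo1 were higher in LEC, and Plxnd1 and Robo4 were lower. The comparison set the mean of the 3 LEC groups against BEC with limma, with p-values adjusted by the Benjamini-Hochberg method over 19712 genes. Called means an adjusted p below 0.05. The members were chosen with earlier results of these data known, so the shares here are descriptions. Of the 37 members tested, 25 were called, against 22.7% of all genes tested. The 25 were 10 higher in LEC, against 12.1% of all genes, and 15 lower in LEC, against 10.6%. The median absolute difference was 0.49 over the 37 members and 0.14 over all genes tested, and the median signed difference was -0.12 and -0.02. The 37 are those that passed the filter on dim genes, and Robo2, counted among the 25, passed it only through its BEC arrays. Without the filter 25 of 45 members were called, against 14.7% of all genes. The LEC arrays did not overlap the BEC arrays for 22 of the 37, against 17.9% of all genes tested. Of these, 9 were higher in LEC, against 8.43% of all genes, and 13 lower, against 9.44%. The summed mural markers were higher on all BEC arrays as well (10.12 to 12.05 in LEC, against 12.96 to 13.32 in BEC). The fibroblast markers summed to 10.01 to 12.15 in LEC and 10.98 to 11.54 in BEC, but Dcn among them was lower on every BEC array. The part of mural cells and fibroblasts in the genes lower in LEC was not tested. Without replicate 1 of pre-col LEC the same 25 members were called, and without replicate 1 of BEC 24 were.

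The stretch of 250 bases before the transcription start is shown for 6 members with large differences, so that the genes that move in the same direction can be set beside each other: Neo1, Sema3d and Sema3a, higher in LEC, and Sema7a, Sema3g and Plxnd1, lower in LEC. The sequences are those of RefSeq for the mouse assembly GRCm38.p6, read 5′ to 3′ on the gene's own strand. They lie at chr9:59036442-59036691 (Neo1, minus strand), chr5:12382916-12383165 (Sema3d, plus strand), chr5:13396534-13396783 (Sema3a, plus strand), chr9:57939862-57940111 (Sema7a, plus strand), chr14:31217623-31217872 (Sema3g, plus strand) and chr6:115995006-115995255 (Plxnd1, minus strand). Capitals mark a match, on either strand, to any of 4 motifs. The motif searched for ETS factors, which act in endothelium, was CCGGAA. For GATA factors it was AGATAA. For forkhead factors it was TGTTTA. For the GC box, a promoter element bound by SP1, it was GGGCGG. In the windows shown, no matches overlap.
Neo1: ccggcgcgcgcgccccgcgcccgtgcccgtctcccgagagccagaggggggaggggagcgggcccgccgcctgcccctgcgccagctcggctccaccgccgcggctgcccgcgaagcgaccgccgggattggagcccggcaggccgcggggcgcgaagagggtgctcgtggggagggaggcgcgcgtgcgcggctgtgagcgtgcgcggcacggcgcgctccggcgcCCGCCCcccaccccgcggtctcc
Sema3d: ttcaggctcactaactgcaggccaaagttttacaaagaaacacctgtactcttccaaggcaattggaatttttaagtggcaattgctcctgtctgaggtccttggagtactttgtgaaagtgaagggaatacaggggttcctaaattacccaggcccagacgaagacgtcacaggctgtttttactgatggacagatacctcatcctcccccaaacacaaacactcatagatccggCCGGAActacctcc
Sema3a: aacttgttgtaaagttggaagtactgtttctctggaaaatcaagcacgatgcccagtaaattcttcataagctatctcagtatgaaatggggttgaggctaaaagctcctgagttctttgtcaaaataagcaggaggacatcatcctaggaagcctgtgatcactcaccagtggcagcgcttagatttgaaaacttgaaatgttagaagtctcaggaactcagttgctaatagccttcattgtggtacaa
Sema7a: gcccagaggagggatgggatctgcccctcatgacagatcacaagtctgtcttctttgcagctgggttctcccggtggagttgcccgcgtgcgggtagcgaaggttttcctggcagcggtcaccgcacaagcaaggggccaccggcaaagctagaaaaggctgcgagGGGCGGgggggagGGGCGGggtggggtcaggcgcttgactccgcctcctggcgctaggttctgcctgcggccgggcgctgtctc
Sema3g: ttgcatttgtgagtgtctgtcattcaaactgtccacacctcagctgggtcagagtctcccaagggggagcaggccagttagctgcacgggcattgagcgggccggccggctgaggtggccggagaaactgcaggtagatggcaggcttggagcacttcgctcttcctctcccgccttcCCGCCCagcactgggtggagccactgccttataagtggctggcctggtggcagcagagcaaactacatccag
Plxnd1: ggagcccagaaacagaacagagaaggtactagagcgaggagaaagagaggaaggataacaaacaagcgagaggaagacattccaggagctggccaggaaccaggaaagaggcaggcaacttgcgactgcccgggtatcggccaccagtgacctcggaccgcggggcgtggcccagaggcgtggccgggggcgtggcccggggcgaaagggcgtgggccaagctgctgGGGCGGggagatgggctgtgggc
Sema3d has an ETS match close to the end of its window, and Sema3a has no match to any of the 4 motifs. Neo1, Sema7a, Sema3g and Plxnd1 have GC box matches, 2 of them in Sema7a. The share of G and C was 83.2% in Neo1, 46.8% in Sema3d and 40.8% in Sema3a, and 66.4% in Sema7a, 60.4% in Sema3g and 64.8% in Plxnd1, with a median of 52.4% over 32851 windows of all genes. RefSeq windows were matched for 39 of the 49 genes. Of the 10 members higher in LEC 6 were matched, and of the 15 lower in LEC 14 were. Among members higher in LEC, 2 of 6 matched genes held CCGGAA and 4 of 6 held GGGCGG. Among members lower in LEC, 0 of 14 held CCGGAA and 11 of 14 held GGGCGG. Of the matched genes not called, 3 of 11 held CCGGAA and 8 of 11 held GGGCGG, with the prefix match Unc50 in each count. Of those not tested, 1 of 8 and 6 of 8 did. In these groups in turn, AGATAA was held by 0, 1, 0 and 0 genes, and TGTTTA by 1, 0, 0 and 0. Over all windows, the ETS motif was found in 12.03%, the GATA motif in 9.99%, the forkhead motif in 12.03% and the GC box in 32.7%. These are shares of single windows, whereas a member was counted if any of its windows held the motif. The median share of G and C was 59.6% to 69.0% in the groups of matched genes, against 52.4% over all windows. The counts of genes and the shares of windows are therefore not directly comparable. The matches describe letters in these windows and were not tested for binding.

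Among the secreted semaphorins, 4 of the 5 tested were called between LEC and BEC, against 22.7% of all genes tested. Sema3c and Sema3e did not pass the filter. Sema3d, a ligand that acts through neuropilin-1 and plexin D1 and helps to pattern veins, measured 12.22, 12.19 and 12.18 in col LEC. It measured 11.94, 12.002 and 11.95 in pre-col LEC, 11.92, 11.73 and 11.89 in cap LEC, and 7.49, 5.44 and 6.39 in BEC. Every LEC array was far above every BEC array, and the BEC arrays spread from 5.44 to 7.49 with all 3 under the negative controls' 95th percentile. The measured log2 difference was 5.56 ± 0.29 (SE, limma adjusted p = 3.13e-08). The highest BEC value was on replicate 1, the array with the most lymphatic marker signal, and without it the difference was 6.09. Sema3a, which repels axons and endothelial cells through neuropilin-1 and class A plexins, gave 9.75, 9.96 and 10.03 in col LEC, 9.59, 9.56 and 9.71 in pre-col LEC, 9.54, 9.31 and 9.68 in cap LEC, and 6.35, 6.29 and 6.87 in BEC. The LEC and BEC arrays did not overlap, and LEC were 3.18 ± 0.12 higher (limma adjusted p = 2.32e-09). Sema3d and Sema3a lie next to each other on chromosome 5, with 0 protein-coding genes between them. Sema3e, whose signal was weak on all 12 arrays, follows Sema3a after 3 other protein-coding genes.

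Sema3f, a ligand of neuropilin-2 that repels cells, measured 10.29, 10.33 and 10.38 in col LEC, 10.21, 10.52 and 10.55 in pre-col LEC, 10.42, 10.54 and 10.82 in cap LEC, and 9.82, 10.11 and 9.94 in BEC. The highest BEC array lay just under the lowest LEC array, and LEC were 0.49 ± 0.10 higher (limma adjusted p = 0.00342). Sema3g, known from arterial endothelium, went in the opposite direction. It gave 7.33, 7.24 and 7.23 in col LEC, 7.78, 7.39 and 7.16 in pre-col LEC, 7.20, 7.08 and 6.95 in cap LEC, and 9.15, 9.53 and 9.92 in BEC. All LEC values were under the negative controls' 95th percentile and under all BEC values, and LEC were lower by 2.27 (difference -2.27 ± 0.15, limma adjusted p = 2.76e-07). Its highest LEC array was replicate 1 of pre-col LEC, where the mural and fibroblast sums were also high. Sema3b averaged 7.25 ± 0.04 in col LEC, 7.16 ± 0.09 in pre-col LEC, 7.25 ± 0.16 in cap LEC and 7.22 ± 0.12 in BEC (SD, n = 3), and its difference from BEC was 0.00 ± 0.08.

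**Figure D2:**
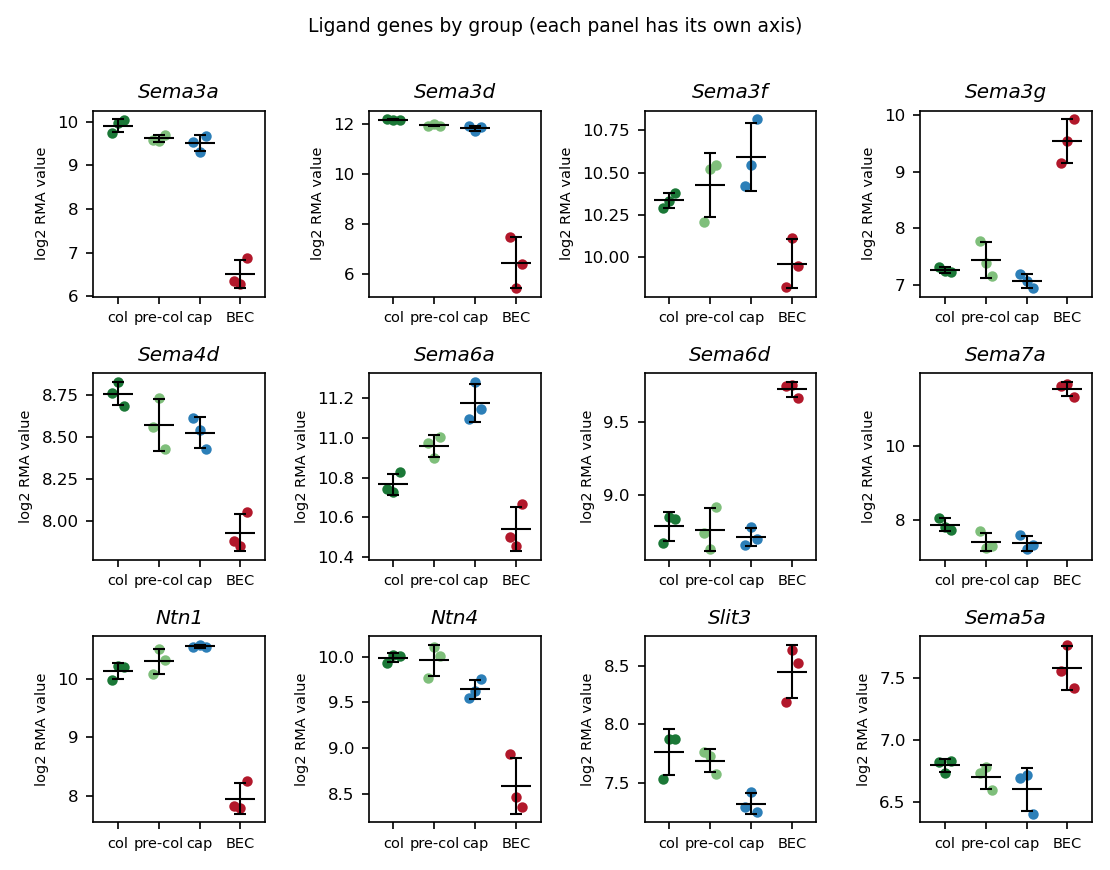
Log2 RMA value (vertical axis, its own range in each panel) of 12 ligand genes on each array of col LEC, pre-col LEC, cap LEC and BEC, with the mean and SD of 3 arrays as bars. Sema3a, Sema3d, Ntn1 and Ntn4 stand higher in all LEC groups than in BEC, Sema3g, Sema7a, Sema6d, Slit3 and Sema5a stand lower, and Sema6a lies at separate heights in col LEC (10.73 to 10.83), pre-col LEC (10.90 to 11.00) and cap LEC (11.09 to 11.28).

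Among the membrane-bound semaphorins, Sema7a was lower in LEC. It is tethered by a lipid anchor and binds plexin C1 and beta-1 integrins. Sema7a measured 8.06, 7.81 and 7.74 in col LEC, 7.69, 7.24 and 7.29 in pre-col LEC, 7.59, 7.21 and 7.32 in cap LEC, and 11.61, 11.66 and 11.32 in BEC. All 9 LEC values lay under the negative controls' 95th percentile and more than 3 log2 units under the lowest BEC value. The difference was -3.98 ± 0.12 (limma adjusted p = 4.03e-10). Plxnc1, its plexin, stayed between 5.10 and 5.41 in all groups and was not tested.

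Class 6 semaphorins are ligands of class A plexins. Sema6d, which binds plexin A1, gave 8.67, 8.85 and 8.83 in col LEC, 8.74, 8.63 and 8.92 in pre-col LEC, 8.66, 8.78 and 8.70 in cap LEC, and 9.75, 9.76 and 9.66 in BEC. No LEC array reached the BEC arrays, and the difference was -0.97 ± 0.07 (limma adjusted p = 8.53e-07). Sema6b, a ligand of plexin A4, measured 10.39, 10.87 and 10.49 in col LEC, 10.02, 10.46 and 10.53 in pre-col LEC, 10.20, 10.34 and 10.32 in cap LEC, and 10.87, 11.07 and 10.96 in BEC. Replicate 2 of col LEC just overlapped the lowest BEC array, and LEC were lower by 0.56 (difference -0.56 ± 0.12, limma adjusted p = 0.00461). Sema6a, which binds plexins A2 and A4, was higher in LEC. It gave 10.74, 10.73 and 10.83 in col LEC, 10.98, 10.90 and 11.00 in pre-col LEC, 11.09, 11.28 and 11.15 in cap LEC, and 10.50, 10.45 and 10.67 in BEC. All LEC arrays exceeded the BEC arrays, those of col LEC by the least, and the difference from BEC was 0.43 ± 0.07 (limma adjusted p = 0.000519). Sema6c averaged 7.44 ± 0.13 in col LEC, 7.42 ± 0.12 in pre-col LEC, 7.39 ± 0.04 in cap LEC and 7.41 ± 0.11 in BEC (SD, n = 3).

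Among class 4, Sema4d, the ligand of plexin B1, was higher in LEC. Its values were 8.76, 8.82 and 8.68 in col LEC, 8.56, 8.73 and 8.43 in pre-col LEC, 8.61, 8.54 and 8.43 in cap LEC, and 7.89, 7.85 and 8.06 in BEC. The LEC arrays all stood above the BEC arrays, by 0.68 ± 0.08 on average (limma adjusted p = 3.56e-05), and all 12 values lay under the negative controls' 95th percentile. Plxnb1, its receptor, averaged 7.21 ± 0.03 in col LEC, 7.27 ± 0.06 in pre-col LEC, 7.16 ± 0.20 in cap LEC and 7.45 ± 0.21 in BEC (SD, n = 3), and its difference of -0.23 ± 0.10 was not called (limma adjusted p = 0.108). Sema4c, a ligand of plexin B2, measured 8.75, 8.77 and 8.60 in col LEC, 8.43, 8.83 and 8.69 in pre-col LEC, 8.52, 8.75 and 8.82 in cap LEC, and 9.15, 8.97 and 9.47 in BEC. The groups did not overlap, and LEC were lower by 0.51 (difference -0.51 ± 0.11, limma adjusted p = 0.0061). Sema5a, a class 5 semaphorin with thrombospondin repeats, gave 6.82, 6.74 and 6.83 in col LEC, 6.73, 6.78 and 6.59 in pre-col LEC, 6.69, 6.71 and 6.40 in cap LEC, and 7.56, 7.77 and 7.42 in BEC. Its relative Sema5b gave 7.52, 7.40 and 7.42 in col LEC, 7.38, 7.39 and 7.36 in pre-col LEC, 7.38, 7.33 and 7.25 in cap LEC, and 7.53, 7.66 and 7.81 in BEC. Both were without overlap and lower in LEC, Sema5a with a difference of -0.88 ± 0.09 (limma adjusted p = 1.3e-05) and Sema5b with -0.28 ± 0.07 (limma adjusted p = 0.0092). Every value of Sema5a and Sema5b was under the negative controls' 95th percentile. Sema4b, Sema4f and Sema4g were not called, with differences of -0.12, -0.10 and -0.10.

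Of the 3 netrins tested, Ntn1 and Ntn4 were higher in LEC, against 12.1% of all genes tested. Ntn1, the classical secreted netrin, measured 9.99, 10.23 and 10.20 in col LEC, 10.09, 10.52 and 10.33 in pre-col LEC, 10.55, 10.59 and 10.55 in cap LEC, and 7.81, 7.78 and 8.25 in BEC. All LEC arrays were above the negative controls' 95th percentile and all BEC arrays below it. The difference was 2.39 ± 0.11 (limma adjusted p = 1.35e-08). Ntn4, a basement membrane protein related to laminins, gave 9.93, 10.02 and 10.01 in col LEC, 9.77, 10.10 and 10.00 in pre-col LEC, 9.55, 9.63 and 9.75 in cap LEC, and 8.93, 8.47 and 8.36 in BEC. The groups did not overlap, and LEC were 1.28 ± 0.11 higher (limma adjusted p = 3.86e-06). Ntn5 was not called (-0.12 ± 0.08, limma adjusted p = 0.316). The row that Ntn3 shares with Tbc1d24 cannot be assigned to either gene, and it averaged 7.81 ± 0.18 in col LEC, 7.64 ± 0.12 in pre-col LEC, 7.85 ± 0.17 in cap LEC and 7.36 ± 0.15 in BEC (SD, n = 3). Of the Slits, Slit3, a ligand of Robo receptors, measured 7.54, 7.88 and 7.88 in col LEC and 7.77, 7.73 and 7.58 in pre-col LEC. It measured 7.30, 7.43 and 7.26 in cap LEC, and 8.19, 8.63 and 8.52 in BEC. The LEC arrays were all lower than the BEC arrays, cap LEC the furthest, and the difference was -0.85 ± 0.10 (limma adjusted p = 6.07e-05), with every value under the negative controls' 95th percentile. Slit1 was not called (-0.12 ± 0.06, limma adjusted p = 0.218).

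Of the 8 plexins tested, 1 was higher and 4 were lower in LEC, against 12.1% and 10.6% of all genes tested. Plxna4, a receptor for class 3 and class 6 semaphorins, measured 10.15, 10.36 and 10.40 in col LEC, 10.25, 10.39 and 10.55 in pre-col LEC, 10.45, 10.38 and 10.41 in cap LEC, and 9.01, 8.89 and 8.82 in BEC. The groups were more than 1 log2 unit apart, and the difference was 1.46 ± 0.08 (limma adjusted p = 4.13e-08), with no BEC array above the negative controls' 95th percentile. Plxna2, a receptor for Sema6a, gave 10.59, 10.49 and 10.62 in col LEC, 10.52, 10.53 and 10.55 in pre-col LEC, 10.64, 10.61 and 10.68 in cap LEC, and 11.39, 11.25 and 11.16 in BEC. LEC were lower without overlap, with a difference of -0.69 ± 0.06 (limma adjusted p = 4.76e-06). Plxna1, a receptor for Sema3a and Sema6d, gave 8.79, 8.73 and 8.82 in col LEC, 8.88, 8.99 and 8.60 in pre-col LEC, 8.53, 8.61 and 8.86 in cap LEC, and 9.27, 9.21 and 9.01 in BEC. The highest LEC array stood only just under the lowest BEC array, and the difference was -0.41 ± 0.10 (limma adjusted p = 0.0093).

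Plxnd1, the endothelial receptor for Sema3e, was lower in LEC. Its values were 10.44, 10.74 and 10.69 in col LEC, 10.37, 10.95 and 10.56 in pre-col LEC, 10.36, 10.67 and 10.60 in cap LEC, and 12.03, 12.15 and 12.10 in BEC. BEC arrays stood more than 1 log2 unit above every LEC array, and the difference was -1.50 ± 0.12 (2.82-fold lower in LEC, limma adjusted p = 1.07e-06). Plxnb2, a receptor of class 4 semaphorins, measured 9.01, 9.25 and 8.98 in col LEC, 8.97, 9.20 and 9.06 in pre-col LEC, 8.73, 8.88 and 8.99 in cap LEC, and 9.18, 9.46 and 9.51 in BEC. The lowest BEC array lay under 2 LEC arrays, and the difference of -0.38 ± 0.09 (limma adjusted p = 0.0116) lost its call without replicate 2 of BEC (-0.34, adjusted p = 0.0525) or replicate 3 of BEC (-0.31, adjusted p = 0.0736). Plxna3 and Plxnb3 were not called, with differences of -0.07 ± 0.09 and 0.10 ± 0.07.

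Of the Robos, Robo4 was lower in LEC. Robo4, which is largely confined to endothelium and holds vessels quiescent in mice, measured 10.19, 10.61 and 10.50 in col LEC, 10.57, 10.76 and 10.62 in pre-col LEC, 10.73, 10.76 and 10.72 in cap LEC, and 11.72, 11.89 and 11.88 in BEC. Each LEC array was below each BEC array, and the difference was -1.22 ± 0.09 (2.33-fold lower in LEC, limma adjusted p = 4.93e-07). Robo2, a Slit receptor best known from neurons and kidney, gave 5.18, 5.06 and 5.09 in col LEC, 5.18, 5.03 and 5.09 in pre-col LEC, 5.09, 5.00 and 5.02 in cap LEC, and 6.20, 6.25 and 6.39 in BEC. The LEC and BEC arrays did not overlap, but all 12 values were far under the negative controls' 95th percentile. No LEC array of Robo2 exceeded its array's median, so the gene entered the test only through BEC, and its values are given as a description. Robo2 and Robo1, a weak row in all groups, are neighbours on chromosome 16, and Robo4 and Robo3 are neighbours on chromosome 9. Robo3 was not called (-0.08 ± 0.07, limma adjusted p = 0.397).

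Of the netrin receptors, Neo1 and Unc5b were higher and Unc5a was lower in LEC, against 12.1% and 10.6% of all genes tested. Neo1, which encodes neogenin, a receptor of netrins and of the repulsive guidance molecules, measured 9.90, 10.33 and 9.93 in col LEC, 9.51, 9.95 and 9.84 in pre-col LEC, 8.79, 8.92 and 8.98 in cap LEC, and 8.07, 8.23 and 8.23 in BEC. The 4 groups formed 3 separate levels, with col and pre-col LEC overlapping at the top, cap LEC in the middle and BEC lowest. The mean of the LEC groups was 1.40 ± 0.11 above BEC (limma adjusted p = 1.42e-06). Unc5b, the netrin receptor of endothelial tip cells, gave 9.79, 10.03 and 9.93 in col LEC, 9.92, 10.22 and 10.15 in pre-col LEC, 10.14, 10.19 and 10.17 in cap LEC, and 9.59, 9.94 and 9.70 in BEC. The highest BEC array overlapped col and pre-col LEC. Its difference of 0.32 ± 0.09 (limma adjusted p = 0.0215) was not called with array weights (0.26, adjusted p = 0.0693), after cyclic loess (0.20, adjusted p = 0.0804), without replicate 1 of BEC (0.24, adjusted p = 0.103) or without replicate 3 of BEC (0.30, adjusted p = 0.0885). Unc5a measured 7.53, 7.60 and 7.48 in col LEC, 7.49, 7.56 and 7.53 in pre-col LEC, 7.52, 7.47 and 7.36 in cap LEC, and 7.82, 7.73 and 7.70 in BEC. Its weak values did not overlap, and the difference was -0.24 ± 0.06 (limma adjusted p = 0.0106). Unc5cl, a relative of the UNC5 receptors, was not called (-0.11 ± 0.07, limma adjusted p = 0.267).

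**Figure D3:**
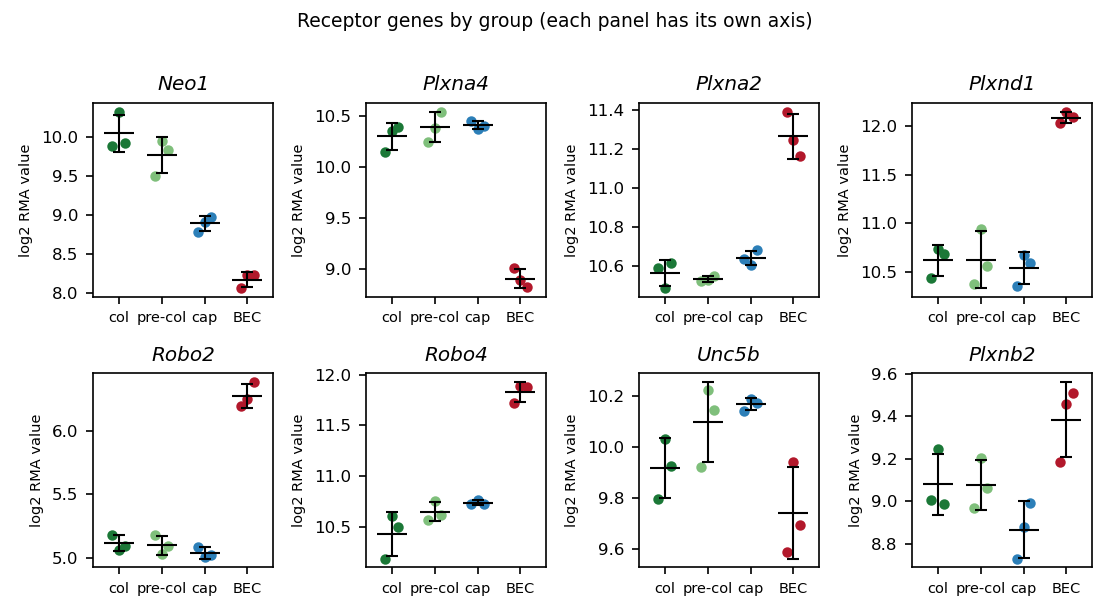
Log2 RMA value (vertical axis, its own range in each panel) of 8 receptor genes on each array of col LEC, pre-col LEC, cap LEC and BEC, with the mean and SD of 3 arrays as bars. Neo1 has 3 levels, with col and pre-col LEC above cap LEC and cap LEC above BEC, Plxna4 stands higher in all LEC groups, and Plxna2, Plxnd1, Robo2 and Robo4 stand lower than in BEC.

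**Figure D4:**
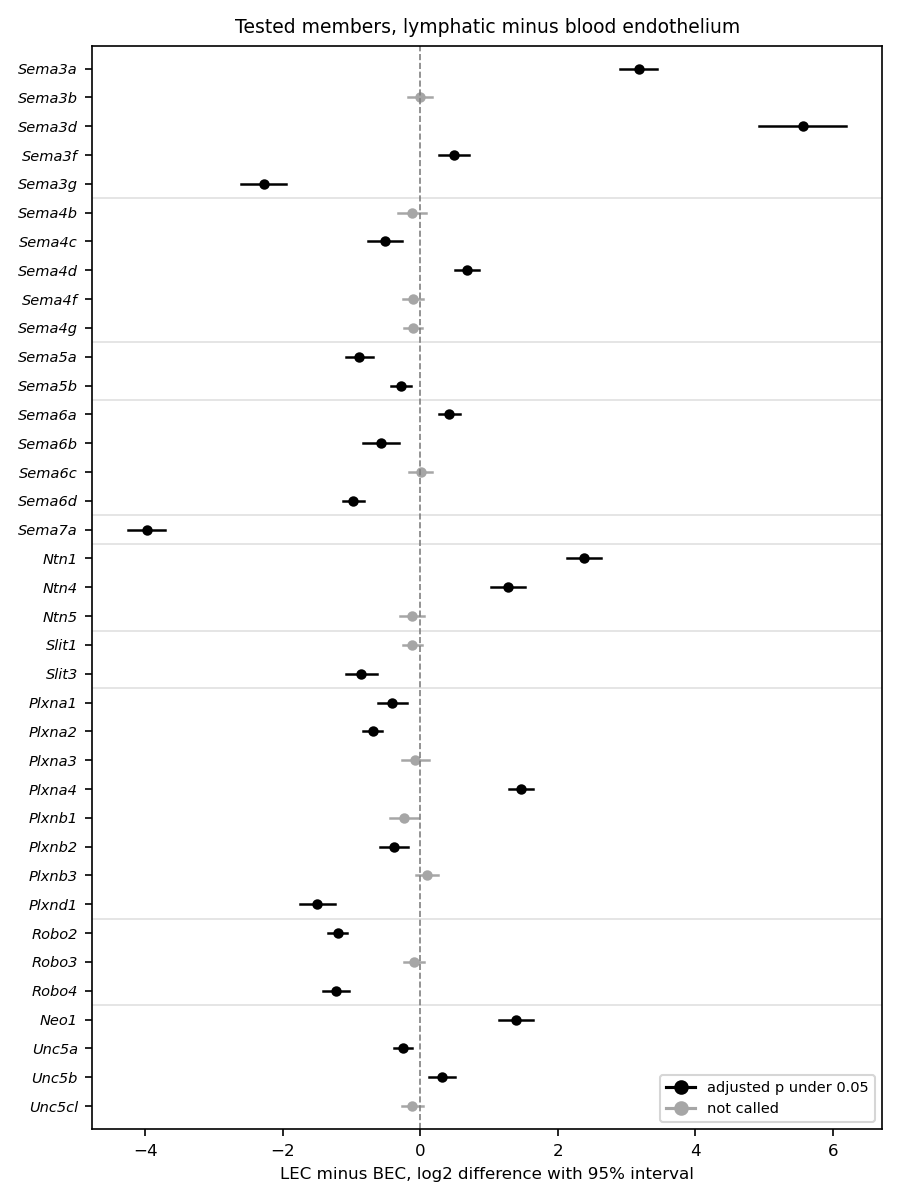
Difference between the mean of the 3 LEC groups and BEC (log2, horizontal axis) with its 95% interval from limma for the 37 members tested, grouped by class. The black points are the 25 members called, and they reach from -3.98 (Sema7a) to 5.56 (Sema3d).

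Within the lymphatic tree the differences were smaller, and Neo1 was the member that moved most. Its LEC arrays spanned 1.54 log2 units, the widest of the 45 members, ahead of Sema3c at 0.93, Sema7a at 0.86, Sema6b at 0.85 and Sema3g at 0.84. Between col and cap LEC, the ends of the LYVE1 bands, 2 of 37 members tested were called, against 1.65% of all genes. Neo1 was higher in col LEC (0.659% of all genes were) and Sema6a was lower (0.989%). An unadjusted p under 0.05 was reached by 11 of 37 members, against 10.5% of all genes. The arrays of col and cap LEC did not overlap for 18 of the 37, against 20.8% of all genes. In col LEC, 12 were higher, against 11.5% of all genes, and 6 lower, against 9.32%. The median difference was 0.10 over the members and 0.03 over all genes tested.

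The Neo1 values given above were 1.15 ± 0.14 (SE) higher in col LEC than in cap LEC (limma adjusted p = 0.000887). Each of the 6 col and pre-col LEC arrays exceeded the negative controls' 95th percentile, and none of the cap LEC arrays did. The call held under all 21 alternatives tried, with differences of 1.01 to 1.23, and was 1.23 without replicate 1 of col LEC, the array with fibroblast signal in that group. Sema6a, with 10.73 to 10.83 in col LEC and 11.09 to 11.28 in cap LEC, was lower by 0.41 in col LEC (difference -0.41 ± 0.08, limma adjusted p = 0.0292). This call was lost in 8 of 21 alternatives: after cyclic loess (adjusted p = 0.104), with only these 2 groups fitted (0.0586), and when any of the 6 arrays compared was left out. The adjusted p was then 0.113, 0.111 and 0.0679 without replicates 1, 2 and 3 of col LEC, and 0.0519, 0.137 and 0.0843 without replicates 1, 2 and 3 of cap LEC.

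For Sema3d, Sema4g and Sema6a the 3 LEC groups were fully separated with pre-col LEC in the middle, 3 of 37 members against 1.19% of all genes. Sema3d and Sema4g were highest in col LEC and Sema6a highest in cap LEC. Sema4g, a transmembrane semaphorin, had weak values of 7.11, 6.95 and 7.06 in col LEC, 6.94, 6.94 and 6.92 in pre-col LEC, 6.92, 6.92 and 6.83 in cap LEC, and 6.94, 7.10 and 7.12 in BEC. The steps were hundredths of a log2 unit in places, and the difference between col and cap LEC was 0.15 ± 0.08 (limma adjusted p = 0.532). For Sema3d it was 0.35 ± 0.35 (limma adjusted p = 0.761), with an SE that is estimated over all 12 arrays, the widely spread BEC arrays included.

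Several further members had separate arrays in col and cap LEC without passing the test over all genes. Sema4b, a transmembrane semaphorin, averaged 7.44 ± 0.10 in col LEC, 7.87 ± 0.17 in pre-col LEC and 7.89 ± 0.17 in cap LEC (SD, n = 3). The difference between col and cap LEC was -0.45 ± 0.11 (limma adjusted p = 0.081), and every col LEC array was below every other array of the study. No Sema4b value stood above the controls on any array, which limits what this difference can show. Slit3 differed by 0.44 ± 0.13 (adjusted p = 0.148) and Sema7a by 0.50 ± 0.15 (adjusted p = 0.162), with the higher values in col LEC. Ntn1 differed by -0.42 ± 0.14 (adjusted p = 0.227) and Robo4 by -0.31 ± 0.11 (adjusted p = 0.266), with the lower values in col LEC. The 2 netrins thus had estimates of opposite sign, since Ntn4 differed by 0.34 ± 0.14 (adjusted p = 0.38). The other values with an unadjusted p under 0.05 were those of Sema3a (0.40 ± 0.15, adjusted p = 0.334), Sema4d (0.23 ± 0.10, adjusted p = 0.404) and Unc5b (-0.25 ± 0.11, adjusted p = 0.43). With array weights in limma, Ntn1, Sema3a, Sema4b, Sema7a and Slit3 were called as well.

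**Figure D5:**
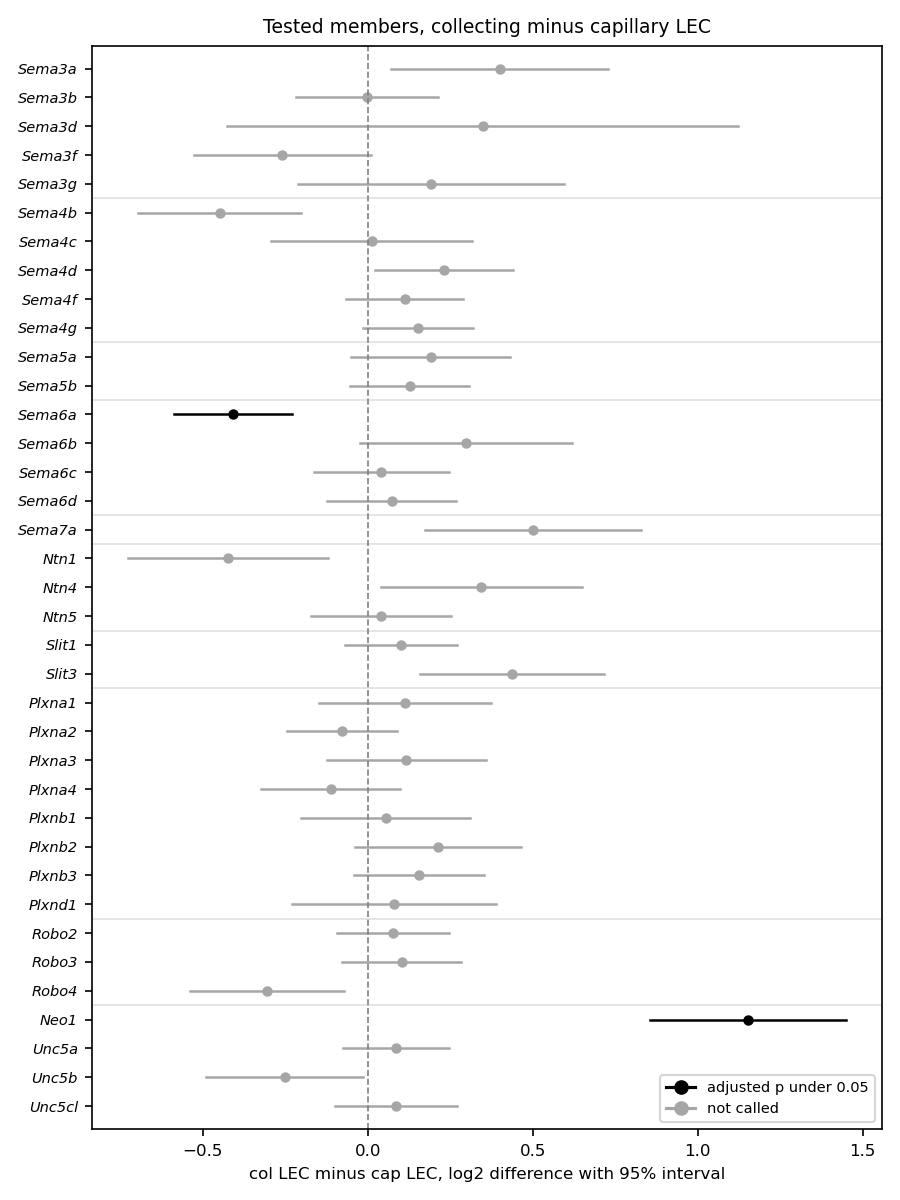
Difference between col and cap LEC (log2, horizontal axis) with its 95% interval from limma for the 37 members tested, grouped by class. The black points are the 2 members called, Neo1 at 1.15 and Sema6a at -0.41, and the other points are not called.

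Between pre-col and cap LEC 0 of 37 members were called by limma, as for all genes tested (0%). An unadjusted p under 0.05 was reached by 4 members and by 6.40% of all genes. Neo1 was nearest to a call, at 0.87 ± 0.14 higher in pre-col LEC, with all 3 pre-col arrays above all 3 cap arrays (limma adjusted p = 0.0848). The other members with an unadjusted p under 0.05 were Slit3 (0.36 ± 0.13, adjusted p = 0.742), Ntn4 (0.31 ± 0.14, adjusted p = 0.775) and Sema6a (-0.22 ± 0.08, adjusted p = 0.770). Between col and pre-col LEC 0 of 37 members were called, against 0.304% of all genes, and 3 members had an unadjusted p under 0.05, against 5.84% of all genes. Sema4b was 0.43 lower in col LEC by estimate (-0.43 ± 0.11, limma adjusted p = 0.247), with separate arrays. Sema7a differed by 0.47 ± 0.15 (adjusted p = 0.467) and Sema6a by -0.19 ± 0.08 (adjusted p = 0.795). For Neo1 the groups overlapped and the difference was 0.28 ± 0.14 (adjusted p = 0.899), with a 95% interval of -0.02 to 0.58. These comparisons share the arrays of each group and are not independent of each other.

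Of the 2 genes that only share a prefix, Unc50 was not called in any of the 4 comparisons, with col minus cap LEC at 0.33 ± 0.13 (limma adjusted p = 0.377). Plxna4os1 was not tested and lay between 5.58 and 6.14.

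The co-receptors and intracellular partners of these receptors were read from a list of 104 genes. It was chosen from general knowledge, with earlier results of these data known. Of the 104 genes, 97 had a row of their own and 91 were tested. Nrp1, the neuropilin that Sema3a needs, shared its row with another gene and was not used. Between LEC and BEC 22 of the 91 were higher in LEC, against 12.1% of all genes, and 15 lower, against 10.6%. Dapk1, a kinase that binds UNC5 receptors, was 3.39 ± 0.14 higher in LEC (limma adjusted p = 3.09e-09), and Nrcam, a cell adhesion molecule that partners with neuropilins, was 2.95 ± 0.09 higher (3.98e-10). Flrt2, a membrane ligand of UNC5 receptors, was 2.82 ± 0.11 higher (2.40e-09), and Hmcn1, hemicentin, 2.64 ± 0.08 higher (3.69e-10). Ablim1 and Enah, which bind actin, were lower in LEC, with differences of -1.96 ± 0.12 (limma adjusted p = 1.69e-07) and -1.94 ± 0.11 (7.76e-08). These 6 had the largest absolute differences of the 37 partners called. Partners are given as differences only, and their levels were not set against the negative controls. The part of mural cells in the lower values of Ablim1 and Enah in LEC was not tested.

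Between col and cap LEC 7 of the 91 partners were called, against 1.65% of all genes. Met, the hepatocyte growth factor receptor that associates with class B plexins, was 0.97 ± 0.16 higher in col LEC (limma adjusted p = 0.00987). The other 6 were lower in col LEC, the 5 furthest being Ablim3 (-1.48 ± 0.11, adjusted p = 4.9e-05), Nrcam (-0.78 ± 0.11, 0.00328), the kinase Fyn (-0.69 ± 0.08, 0.000566), Adgrl4 (-0.52 ± 0.11, 0.0403) and the scaffold Magi1 (-0.48 ± 0.09, 0.0168). Ablim3 (-1.04 ± 0.11, limma adjusted p = 0.00204) and Fyn (-0.43 ± 0.08, 0.046) were also lower in col LEC than in pre-col LEC, and 0 partners were called between pre-col and cap LEC. Nrp2, the co-receptor of Sema3f and a gene of lymphatic vessels, had a difference of -0.62 ± 0.17 between col and cap LEC without a call (limma adjusted p = 0.122), and of 0.41 ± 0.14 between LEC and BEC (adjusted p = 0.055).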

How the data were processed

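RNA from 4 sorted endothelial populations of mouse ear skin (3 arrays each, 12 in all) was measured on Affymetrix whole-transcript arrays. The authors deposited log2 values after RMA, per the submitters' processing notes. The software, its version and which arrays were normalized as a set were not given in the sources used here. RMA compresses differences of weak signals and hides changes in total RNA per cell. Array medians lay between 6.06 and 6.17. For arrays, their number limits the precision: the median SD within a group was 0.141, and correlations within a group were 0.971 to 0.988.

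Gene names came from the platform annotation. Of 72688 rows, 31362 named 1 gene and 1388 several. Rows naming several genes were left out, and the brightest row stood for each gene. A gene was tested where its value exceeded the median row of its array on 3 or more of 12 arrays, which kept 19712 of 30807. Group means over all 12 arrays were fitted with limma 3.58.1 in R 4.3.3 (lmFit, contrasts.fit, eBayes, prior df 3.62, residual df 8), two-sided, with Benjamini-Hochberg adjustment over all genes tested and a threshold of 0.05. Errors of differences are standard errors, errors of levels are SD. Values above the 95th percentile of 5222 negative control rows are described as above the controls, since no detection flags were used. Promoter windows of 250 bases and neighbouring genes came from RefSeq (GRCm38.p6), motifs and plots from Python 3.11.15 with pandas 2.3.3 and matplotlib 3.10.9.

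The members, gene lists and alternatives were chosen with earlier results of these data known. Members called in at least 1 comparison, or with separate LEC groups, are given array by array, other members by mean, range or count, and partners by up to 6 called genes per comparison, chosen by absolute difference, with Nrp1 and Nrp2 named after their values were seen. The alternatives were cyclic loess, array weights, fits of only the groups compared, 2 other filters, 2 other choices of row, a variance trend, the replicate number as a block, and leaving out each array. Summed marker levels are log2 of summed linear values.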

Additional observations from a re-analysis of the deposited data

How the results depend on the processing

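Over the 21 alternatives, no difference of a called member changed sign. The median differences of the members moved by less than the median SD within a group (0.141). That margin is wider than the size of each main median, so it does not show that the medians are stable. After cyclic loess the median went from -0.12 to -0.05 between LEC and BEC, and from 0.022 to -0.00012 between col and pre-col LEC. The 25 members called between LEC and BEC became 23 to 27, and the 27 came from the shared rows of Ntn3 (0.41, adjusted p = 0.0104) and Sema4a (-0.35, 0.00416). Between col and cap LEC the 2 calls became 1 after cyclic loess, 1 with only the groups compared, 7 with array weights, and 1 to 2 when an array was left out. With the replicate number as a block they became 4, adding Sema4b (-0.45, adjusted p = 0.0237) and Sema7a (0.50, 0.0436). Between pre-col and cap LEC the 0 calls became 1, Neo1, after cyclic loess (0.93, adjusted p = 0.0451), with array weights (0.92, 0.0158) and with the replicate block (0.87, 0.0447). Between col and pre-col LEC 0 members were called in all of them. The numbers were not taken as pairs, since not every same-number pair of arrays had a correlation of deviations over 0.1. It was -0.09 to 0.21 over 18 pairs (median 0.09), against -0.14 to 0.18 over 36 pairs of different numbers (median -0.04), and 0.05 to 0.21 in the same-number pairs of LEC arrays. Each LEC array correlated best with its own number in each other LEC group, a hint from the data and not the design. The causes were not tested. Over all genes, the calls between col and cap LEC were 325 against 795 with array weights and 183 to 206 without a col or cap LEC array. Those between col and pre-col LEC were 60 against 154 with array weights, 5 with only these groups, and 25 to 36 without replicate 1 or 2 of col LEC or replicate 2 or 3 of pre-col LEC. Those between pre-col and cap LEC were 0 against 13 with cyclic loess, 28 with array weights, 3 with the block and 0 or 1 in the others. Signals under the negative controls on all 12 arrays limit what Robo2, Sema4b, Sema4d, Sema4g, Sema5a, Sema5b, Unc5a and Slit3 can show.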
